A study of Mus musculus with 6 samples.

Results

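Sox8, Sox9 and Sox10 are the SoxE genes, a group of closely related transcription factors that bind DNA through a high mobility group box. These 3 genes, of 19057 with a symbol in the platform annotation, were taken by symbol whatever their signal, and the arrays carried 5 probes for them, of 45281 in all. Sox9 had 2 (ILMN_2778151 and ILMN_3007428), Sox10 had 1 (ILMN_1228105) and Sox8 had 2 (ILMN_1259039 and ILMN_2784686).

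The samples were conjunctival epithelium (the cell sheet on the inner face of the eyelids and over the sclera), captured by laser from frozen mouse embryos at stage E14.5 on a mixed FVB and 129 background. KO embryos were Sox9 fx/fx and Le-Cre-positive, which the labels equate with Sox9-/-, and WT embryos were labelled wild type with no further allele named. Le-Cre is known as a driver active in the surface ectoderm of the eye, so deletion is not expected in mesenchyme, nerve or cartilage. Each genotype had 1 array for the nasal, 1 for the temporal and 1 for the dorsal part, 6 arrays in all. By the design text each genotype's arrays came from 3 embryos with the cDNA of a region pooled. The arrays of a genotype may then share embryos, and p-values measure only the spread between these arrays and are too small for embryos.

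As background, SOX9 is required for cartilage, where it acts with SOX5 and SOX6 on collagen genes, and it is known from the buds of many glands. SOX10 is best known from neural crest, where it directs glia and pigment cells, and is also found in gland epithelium. SOX8 overlaps with both in several tissues and is usually the weakest in effect. The nasal and temporal conjunctiva form the Harderian and lacrimal gland buds, in which Sox9 and Sox10 are both known to be expressed.

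A probe was called detected where its detection p-value, which ranks its signal among the array's negative controls, was under 0.05. By that measure Sox9 was detected by both probes on all 6 arrays and Sox10 on 4. One Sox8 probe was detected on 1 array and the other on none. Detection covered 39.8% to 44.9% of all probes on KO arrays and 43.4% to 45.6% on WT arrays. The median signal of an array was 80.5 to 83.7 intensity units on KO arrays and 77.3 to 80.0 on WT arrays, with a median of 43 beads per probe. All 10 markers of surface epithelium, keratins and Cdh1 among them, were detected on all 6 arrays.

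**Figure D1:**
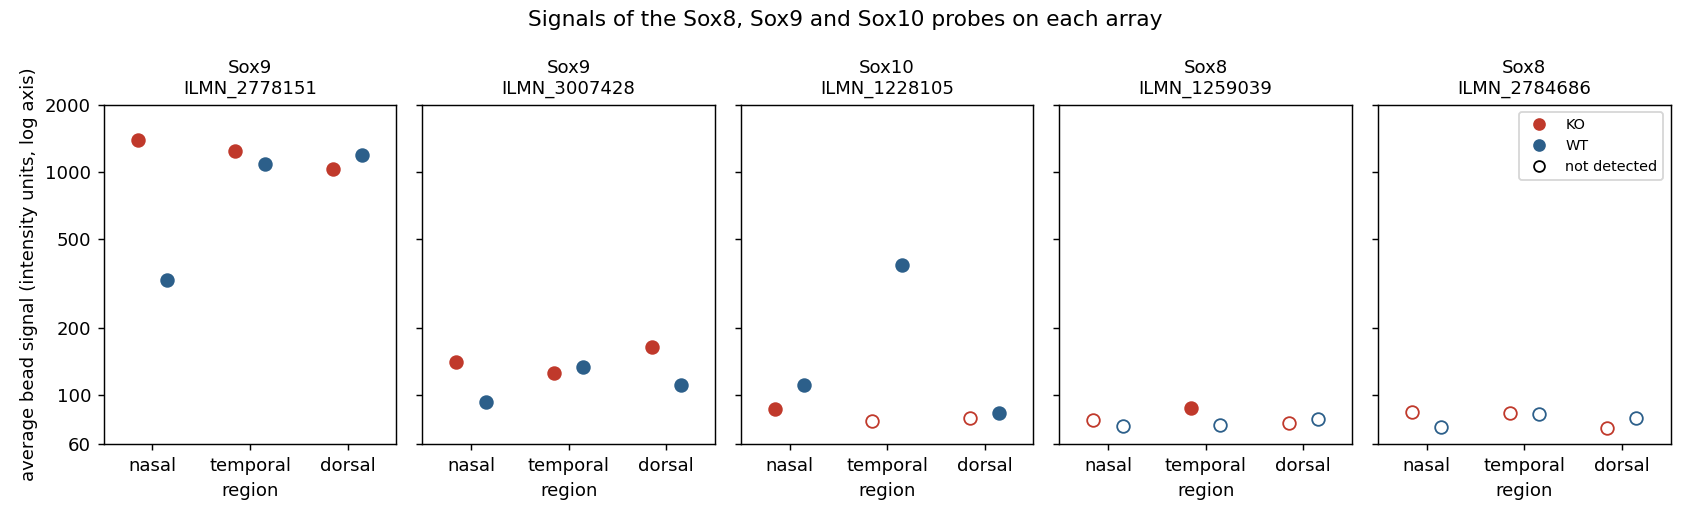
Average bead signal (intensity units, log axis) of each probe of Sox9, Sox10 and Sox8 on the KO and WT arrays of the 3 regions. Bars are the standard error over beads, mostly smaller than the symbols, and open symbols were not detected. Sox9 ILMN_2778151 lies between 1029 and 1388 on 5 arrays and at 328 on the WT nasal array, and Sox10 is highest on the WT temporal array at 384.

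The targeted gene, Sox9, was not lower on the KO arrays as a group. Its brighter probe, ILMN_2778151, read 1388 ± 43.5 intensity units on the KO nasal, 1239 ± 28.8 on the KO temporal and 1029 ± 24.6 on the KO dorsal array. The WT arrays gave 328 ± 11.0 in nasal, 1085 ± 25.6 in temporal and 1192 ± 27.2 in dorsal (± bead SE, 45 to 69 beads). The WT nasal array stood alone at the low end, and the other 5 overlapped between genotypes. By rank the probe was brighter than 98.8% to 99.2% of all probes on the KO arrays, and brighter than 95.1%, 99.0% and 99.3% on the WT nasal, temporal and dorsal arrays. The authors' processed intensities of this probe, from their other deposited table, placed the arrays alike, at 1154, 1050 and 897 in KO and 289.9, 1009 and 1256 in WT for nasal, temporal and dorsal.

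The dimmer Sox9 probe, ILMN_3007428, read 140 ± 5.79, 126 ± 3.64 and 164 ± 5.65 intensity units on the KO nasal, temporal and dorsal arrays, against 92.7 ± 2.54, 133 ± 5.62 and 111 ± 3.24 on the WT nasal, temporal and dorsal arrays (33 to 44 beads). All 6 values lay above detection, with a detection p of 0.00107 on the WT nasal array and 0 on the others. Here too the WT nasal array was lowest, but the highest was KO dorsal, which for the brighter probe was the second lowest. Over the 6 arrays the log2 values of the probes had a Pearson correlation of 0.67 and a Spearman correlation of -0.086, so they agreed on the WT nasal array and hardly on the order of the rest. The files do not say where in the transcript either probe lies. Neither can therefore be placed inside or outside the deleted part of the gene, and the probes do not check the deletion. KO and WT are used here as the arrays are labelled.

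After background correction, quantile normalization and log2 transformation, the order of arrays for the brighter Sox9 probe was WT dorsal (10.35), KO nasal (10.21), KO temporal (10.06), WT temporal (10.01), KO dorsal (9.85) and WT nasal (8.29). KO temporal and WT temporal, 0.05 apart, did not differ beyond 2 bead SE, while the other neighbours did. The step down to WT nasal was 1.56 with a bead SE of 0.07. For the dimmer probe the order was KO dorsal (6.57), WT temporal (6.26), KO nasal (6.20), KO temporal (5.84), WT dorsal (5.80) and WT nasal (5.21). Of these neighbours, WT temporal and KO nasal lay within 2 bead SE of each other, and so did KO temporal and WT dorsal.

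Within regions the KO and WT arrays are single arrays, so these differences carry no test, and the bead SE covers measurement on the array only. In nasal epithelium the KO array was higher by 1.92 log2 units (bead SE 0.08, 3.79-fold) for the brighter Sox9 probe and by 0.99 (0.15, 1.98-fold) for the dimmer. In temporal the differences were 0.05 (0.05) and -0.42 (0.14). In dorsal they were -0.50 (0.05) and 0.78 (0.12). The probes had the same sign in nasal alone. Both Sox9 probes had opposite signs between 2 regions, each difference over 0.4 log2 units and over 2 bead SE. The rule also required detection on both arrays of each of the 2 regions, and 15.8% of the 22926 probes tested met it. The probes tested include some detected on too few arrays to meet it. With median scaling of the arrays neither Sox9 probe met this rule, as the brighter had -0.24 in dorsal and the dimmer -0.25 in temporal. The dimmer also missed it with -0.20 in temporal without background correction and -0.28 with an offset of 50. The signs were the same under each of these settings.

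Fitted over the regions, Sox9 averaged 10.04 ± 0.18 in KO and 9.55 ± 1.10 in WT (log2, SD over regions, n = 3 arrays each) with the brighter probe. The difference was 0.49 (SE 0.49, 95% interval -0.74 to 1.72, adjusted p = 0.893 in limma). Without either nasal array it was -0.22, so its direction rests on the nasal pair. The dimmer probe averaged 6.20 ± 0.37 in KO and 5.75 ± 0.53 in WT, a difference of 0.45 (SE 0.34, interval -0.41 to 1.31, adjusted p = 0.861 in limma). It was 0.18 without the nasal arrays and 0.88 without the temporal ones. Of the 22926 probes detected on at least 2 arrays, 0 passed an adjusted p of 0.05 in limma (percent called 0), and 1289 (5.62%) had an unadjusted p under 0.05. Neither Sox9 probe was among the latter.

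Sox10 was lower on the KO array in each of the 3 regions, by very unequal amounts. The probe ILMN_1228105 read 86.6 ± 2.02 intensity units on the KO nasal, 76.6 ± 1.75 on the KO temporal and 78.4 ± 1.86 on the KO dorsal array. The WT arrays gave 111 ± 2.45 in nasal, 384 ± 10.2 in temporal and 82.6 ± 1.97 in dorsal (37 to 72 beads). Its detection p was 0.0288, 0.802 and 0.2 on the KO arrays and 0, 0 and 0.0246 on the WT arrays, in the order nasal, temporal, dorsal. Sox10 was thus not detected on KO temporal and KO dorsal, close to the detection limit on KO nasal and WT dorsal, and well above background on WT nasal and WT temporal. The genotypes overlapped, as the KO nasal signal exceeded that of WT dorsal. In these bulk samples fewer cells of a type and less RNA per cell cannot be told apart.

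In temporal epithelium Sox10 was at least 14.3-fold lower in KO, where it was not detected. The measured log2 values were 4.18 in KO and 8.36 in WT. The bound takes for KO the lowest log2 value of a detected probe on that array, 4.53. It holds only for the main processing, with a difference of -4.19. The difference was -2.18 without background correction, -2.80 with an offset of 50 and -8.26 with the authors' processed values. In nasal, where both arrays detected it, the log2 values were 4.66 in KO and 5.87 in WT, a difference of -1.21 (bead SE 0.14, 2.32-fold). In dorsal they were 4.31 and 4.53, a difference of -0.22 (bead SE 0.18) that lay within 2 bead SE. In order of level, WT temporal and WT nasal were separated from each other and from the rest by more than 2 bead SE, and KO nasal, WT dorsal, KO dorsal and KO temporal followed, each within 2 bead SE of the next.

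Over the regions Sox10 averaged 4.38 ± 0.25 in KO and 6.26 ± 1.94 in WT (log2, SD over regions, n = 3 arrays each). The fitted difference was -1.87 (SE 0.75, 95% interval -3.74 to -0.01), with an unadjusted p of 0.0494 and an adjusted p of 0.837 in limma, so it did not pass. It was -0.72 without the temporal arrays, -2.20 without the nasal and -2.70 without the dorsal ones. Other processing gave values between -4.03 with the authors' processed values and -0.89 without background correction. The same sign in all 3 regions was found for 1 of the 3 SoxE probes tested, Sox10, and for 27% of all tested probes. The spread of Sox10 over the arrays was wider than that of 99.9% of tested probes, that of the brighter Sox9 probe wider than 92.1% and that of the dimmer wider than 70.9%.

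Sox8 was at background. The probe ILMN_1259039 read 76.9, 87.7 and 74.8 intensity units on the KO nasal, temporal and dorsal arrays, against 72.8, 73.2 and 77.9 on the WT nasal, temporal and dorsal arrays. It was detected on the KO temporal array, with a detection value of 0.0353, and on no other. The probe ILMN_2784686 read 83.8, 83.0 and 71.3 in KO and 72.0, 81.8 and 78.6 in WT in the same order, with its lowest detection p, 0.0524, on the WT temporal array. The signals stood between the 3.47th and the 60.1th percentile of their arrays, the groups overlapped for both probes, and neither probe entered the tests. With the filter on dim probes removed, the difference was 0.09 (95% interval -0.33 to 0.51, adjusted p = 0.961 in limma) for ILMN_1259039 and -0.01 (interval -0.40 to 0.37, adjusted p = 0.993 in limma) for ILMN_2784686. A Sox8 level below the background of these arrays is not measurable here, and the intervals concern background signal.

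**Figure D2:**
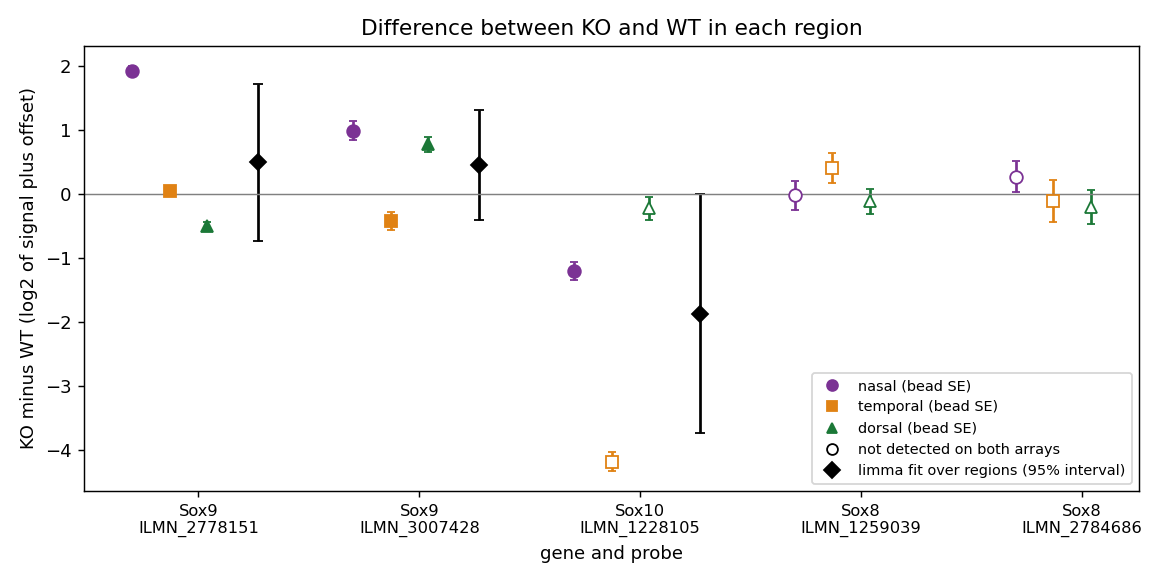
Difference between KO and WT (log2 of corrected signal plus an offset) for each SoxE probe in nasal, temporal and dorsal epithelium, with bars of 1 bead SE, and the limma fit over the regions with its 95% interval for the 3 probes tested. Open symbols were not detected on both arrays. Sox10 lies below 0 in each region, with -4.19 in temporal, and the Sox9 probes lie on opposite sides of 0 in dorsal.

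Single-region differences of at least 2-fold were common among the tested probes detected on at least 1 of the region's 2 arrays (20706 in nasal, 21133 in temporal and 21582 in dorsal). In nasal they were found for 2 of the 3 SoxE probes tested, Sox9 ILMN_2778151 (higher in KO) and Sox10 (lower), and for 19.6% of those probes (9.57% higher, 10.1% lower). Sox10 fell short of 2-fold in nasal without background correction (-0.41) and with an offset of 50 (-0.64), and the dimmer Sox9 probe reached it with median scaling (1.14) and with the authors' processed values (1.34). In temporal they were found for 1 of 3, Sox10, against 15.2% (7.69% higher, 7.52% lower), and in dorsal for 0 of 3, against 5.86% (2.8% higher, 3.06% lower).

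The comparison of gland-forming with dorsal epithelium asks whether SoxE expression marks the regions that bud. In KO, nasal minus dorsal was 0.35 and temporal minus dorsal -0.13 for Sox10 (log2). As Sox10 was not detected on KO temporal and KO dorsal and was close to the limit on KO nasal, these differences lie at background. In WT, Sox10 was 1.34 higher in nasal and 3.83 higher in temporal than in dorsal. The brighter Sox9 probe was 0.36 and 0.21 higher in nasal and temporal than in dorsal in KO, whereas in WT its differences were -2.06 and -0.34. For the dimmer probe these values were -0.37 and -0.73 in KO, and -0.59 and 0.46 in WT. Fitted over both genotypes, gland-forming (nasal and temporal averaged) minus dorsal was 1.35 for Sox10 (SE 0.79, 95% interval -0.63 to 3.33), -0.46 for the brighter Sox9 probe (SE 0.52, interval -1.76 to 0.85) and -0.31 for the dimmer (SE 0.37, interval -1.22 to 0.61). None passed (adjusted p = 0.9996 each in limma). Of all probes 0 passed (percent called 0), and 3.77% had an unadjusted p under 0.05 in limma.

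Nasal minus temporal was -1.00 for Sox10 (SE 0.92), -0.78 for the brighter Sox9 probe (SE 0.60) and -0.34 for the dimmer (SE 0.42), with adjusted p of 0.845, 0.814 and 0.884 in limma. In KO alone, nasal minus temporal was 0.48 for Sox10, which was not detected on KO temporal. For the brighter and the dimmer Sox9 probe it was 0.15 and 0.36. In WT the values were -2.49, -1.72 and -1.05 in the same order, so each fitted direction was that of the WT arrays. Again 0 probes passed in limma, and 6.79% had an unadjusted p under 0.05. Whether the genotype difference in dorsal departed from its mean in nasal and temporal was tested as an interaction, with 1 residual degree of freedom before moderation. It was 2.48 for Sox10 (SE 1.33, interval -1.06 to 6.01), -1.48 for the brighter Sox9 probe (SE 0.95, interval -3.99 to 1.02) and 0.49 for the dimmer (SE 0.80), with an adjusted p of 0.9999 each in limma. The share of probes called was again 0, with 2.32% at an unadjusted p under 0.05.

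Genes whose pattern over the 6 arrays was most like that of Sox9 or Sox10 were ranked by Pearson correlation of log2 values, among 5896 genes that spanned at least 1 log2 unit. For the brighter Sox9 probe they were Frk, a Src-related tyrosine kinase (r = 0.996), Ipo13, an importin (0.983), Unc13d, a factor of granule release (0.980), Rbm14, an RNA-binding protein (0.972), and Pikfyve, a lipid kinase of endosomes (0.972). What they share with Sox9 is chiefly the low WT nasal array. Frk, for instance, had 5.46 on WT nasal and 6.44 to 6.73 on the other 5. For Sox10, 4 of the 5 with the highest correlation were Nrcam, a neuronal adhesion molecule (0.996), Col9a3, a collagen chain of cartilage (0.995), Fzd5, a Wnt receptor (0.987), and Adamts4, a protease of the cartilage proteoglycan aggrecan (0.983). Adamts4 was not detected on the KO temporal array, at 4.18, and had 8.41 on the WT temporal array, where these 4 genes peaked. Nrcam was detected on 2 arrays, Col9a3 and Adamts4 on 3 each and Fzd5 on 6, so several of the values correlated lay at background. A correlation of at least 0.9 was reached by 38 genes for Sox9 and by 57 for Sox10. With n = 6 arrays, each such value rests largely on 1 array.

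**Figure D3:**
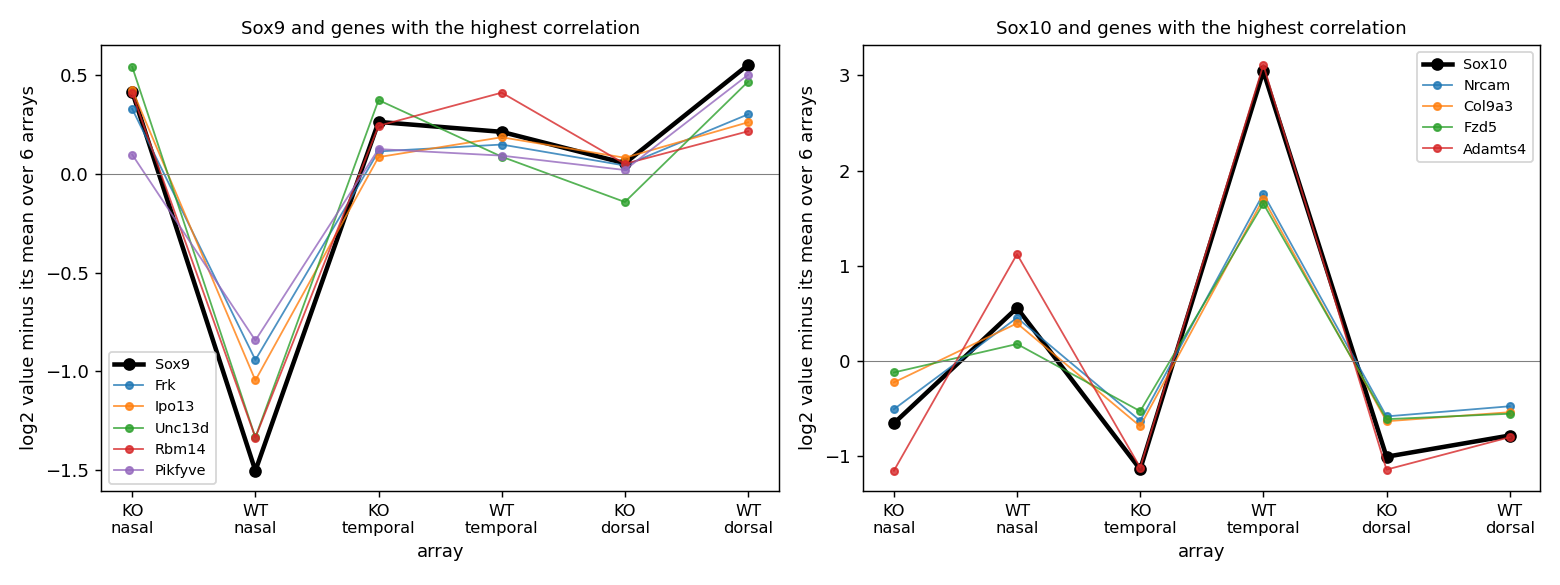
Log2 values on the 6 arrays, each gene centred on its own mean, for Sox9 (ILMN_2778151, left) and Sox10 (right) with 5 and 4 of the 5 genes of highest Pearson correlation. The left set dips on the WT nasal array and the right set peaks on the WT temporal array. The vertical axes differ.

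Of 16 other genes of the Sox family on the array 9 had a tested probe, 5 lower and 4 higher in KO, where 51% of all tested probes were lower. Their median was -0.07, against -0.01 for all tested probes, and 0 passed in limma (0 at an unadjusted p under 0.05). With median scaling of the arrays, which moves the median of all probes to 0.11, only 3 were lower. Sox4 and Sox11, SoxC factors of embryonic progenitors, had 0.37 (SE 0.33) and -0.22 (SE 0.24). Sox11 was bright on all arrays, averaging 9.72 in KO and 9.95 in WT (log2), and its 4 probes gave -0.22 to -0.06. Sox21, a SoxB factor of ectoderm, had -0.29 (SE 0.31), and -0.05 with its other tested probe. Sox2, a SoxB factor of eye and neural progenitors, had -0.18 (SE 0.24) and was detected on 1 KO and 2 WT arrays. Sox6, a SoxD partner of SOX9, had -0.31 (SE 0.24), with -0.14 and -0.09 for its other tested probes. Sox5, the other SoxD partner, had 0.07 with the brightest of 5 tested probes, which ranged between -0.51 and 0.29. Among these other Sox genes, by the brightest probe of each, Sox21 had the largest fitted difference of gland-forming minus dorsal epithelium. It was 1.38, against 1.35 for Sox10, and neither passed.

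Among 11 tested partners and targets of SOX9 in cartilage, of 17 on the array, 8 were lower and 3 higher in KO. Of all tested probes 51% were lower. The median of the 11 was -0.31 over regions. By region it was -0.30, -0.63 and -0.10 in nasal, temporal and dorsal, against -0.03, -0.03 and -0.01 for all probes. In limma 0 passed and 1 had an unadjusted p under 0.05, against 5.62% of all tested probes. That gene was Col2a1, the main cartilage collagen, with -2.50, -5.80 and -1.13 in nasal, temporal and dorsal (fit -3.15, SE 0.86). Col2a1 was not detected on KO temporal, so the -5.80 is a difference from background, and the fit includes it. Col9a1, another cartilage collagen gene, had -4.98 in temporal (fit -1.75, SE 0.99). It was detected on 1 KO and 1 WT array. In nasal and dorsal its values lay below the lowest detected ones, so the -0.10 and -0.18 there concern background. Mia, a secreted cartilage protein gene, had -3.77 in temporal and 0.46 in dorsal (fit -1.41, SE 0.78). Col9a3, detected on 1 KO and 2 WT arrays and not on KO temporal, had a fit of -1.04 (SE 0.47). Col9a2 was detected on 0 KO arrays and all 3 WT arrays (fit -1.06, SE 0.55). It had -2.74 in temporal, but only -0.16 in nasal and -0.28 in dorsal. Its bound of at least 1.75-fold lower is a mean over the regions that rests on temporal. On WT nasal and WT dorsal it lay near the lowest detected values of those arrays. Col2a1, Col9a1, Mia, Col9a3 and Col9a2 each had their largest difference in temporal epithelium, as Sox10 did. The other tested members, Sox5 and Sox6 apart, had 0.61 for Hapln1, a link protein of the matrix, and -0.17 to 0.18 for Acan, Wwp2 and Col11a1. Without the temporal arrays 8 of the 11 were lower, with a median of -0.22, though Wwp2 and Sox5 changed sides.

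Of glial and neural crest targets of SOX10, 10 of the 18 on the array were tested, 6 lower and 4 higher in KO. Of all tested probes 51% were lower. The 10 had a median of -0.06, against -0.01 for all tested probes. In limma 0 passed, and 0 had an unadjusted p under 0.05, against 5.62% of all tested probes. Without the temporal arrays, and also with median scaling, 4 of the 10 targets were lower. Fabp7, a lipid-binding protein of glial precursors, had -1.90, -2.29 and 0.52 in nasal, temporal and dorsal (fit -1.22, SE 0.57). Ngfr, the low-affinity neurotrophin receptor, had -2.20 in temporal (fit -0.96, SE 0.43). Ednrb, the endothelin receptor of crest cells, had -1.99 and -1.35 in nasal and dorsal and 0.34 in temporal (fit -1.00, SE 0.47). Fabp7 was not detected on KO nasal, Ngfr on KO temporal or Ednrb on KO dorsal, so the differences there were taken against background. Mitf, the pigment cell factor, had 0.70 (SE 0.28), and Mbp, a myelin protein, 0.39 (SE 0.50). Erbb3, the neuregulin receptor of glia, named here after its values were seen, had 2.21 in nasal and -2.44 in temporal.

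Gland bud genes linked to Sox9 and Sox10 had 16 tested members of 17 on the array, 11 lower and 5 higher in KO, against 51% lower among all tested probes. Their median was -0.19 over regions, and -0.15, -0.42 and -0.26 in nasal, temporal and dorsal. With median scaling 8 were lower and the median was 0.03. This list, like the others, was chosen with earlier results of these data known, so its counts are not independent of them. In limma 0 passed, and 2 had an unadjusted p under 0.05, as 5.62% of all tested probes did. They were Ehf, an epithelial ETS factor (-1.86, SE 0.43), and Spry2, a feedback inhibitor of FGF signalling (-0.89, SE 0.23). Spry2 was lower by a similar size in each region, with -0.96, -0.99 and -0.73 in nasal, temporal and dorsal. The heparan sulfate 3-O-sulfotransferase genes had their largest differences in temporal, -4.36 for Hs3st3b1 (fit -1.58, SE 0.92) and -2.71 for Hs3st3a1. Hs3st3a1 was detected on 0 KO arrays and all 3 WT arrays, but differed by only -0.10 in nasal and -0.30 in dorsal. Its bound of at least 1.93-fold lower is a mean over the regions that rests on temporal. On WT nasal and WT dorsal, at 4.66 and 4.68, it lay near the lowest detected values, 4.49 and 4.44. Etv5, an FGF-responsive ETS factor, had -1.29 in temporal (fit -0.62, SE 0.30).

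**Figure D4:**
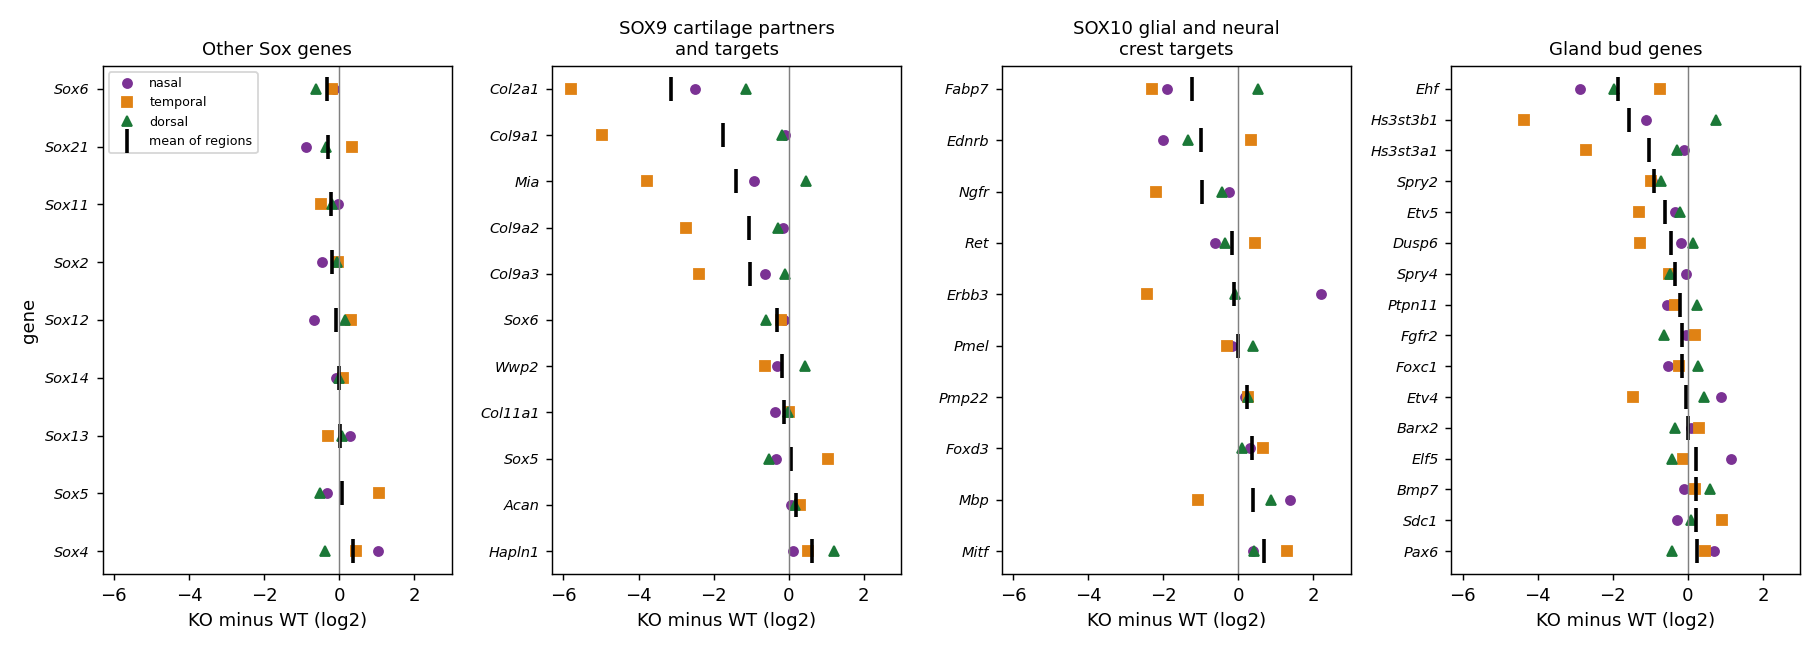
KO minus WT (log2) in nasal, temporal and dorsal epithelium for each tested gene of 4 lists, with the mean of the regions as a vertical mark. In the cartilage list the temporal points of Col2a1, Col9a1, Mia, Col9a2 and Col9a3 lie between -5.80 and -2.39. Of these genes, Col2a1, Col9a2 and Col9a3 were not detected on the KO temporal array. The other Sox genes lie between -0.89 and 1.06.

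Markers of other cell types, some of which carry SoxE factors, were measured on the same arrays. Of 7 Schwann cell and nerve markers on the array, 3 or 4 were detected per array, and their summed corrected signal was 382, 95.1 and 156 intensity units on the KO nasal, temporal and dorsal arrays, against 126, 441 and 123 on the WT nasal, temporal and dorsal arrays. Cdh19, S100b and Gfra3 were not detected on any array, while Erbb3, Fabp7 and Ngfr made up most of the WT temporal sum. Of 6 chondrocyte markers, Matn1 and Comp were not detected on any array. The sum over the 6 was 58.2, 36.0 and 140 in KO and 246, 1057 and 98.8 in WT, and on the WT temporal array Col2a1 was the only member detected, at 1115 intensity units. Of 6 pigment cell markers, Dct, Tyr and Tyrp1 were not detected on any array, and Mlana on 1. The sum was 378 to 476 in KO and 142 to 287 in WT. Mitf made up most of it on each array, so the sum describes that gene and not pigment cells. Its uncorrected signals were 528, 449 and 425 in KO and 332, 196 and 278 in WT (nasal, temporal, dorsal). Periocular mesenchyme markers, 9 on the array, summed to 434 to 845 in KO and 379 to 785 in WT. Macrophage markers, 6 on the array, summed to 68.0 to 222 in KO and 32.3 to 45.7 in WT, with Ptprc not detected on any array. The nerve and chondrocyte sums were highest on the WT temporal array, as was Sox10. There the chondrocyte sum describes Col2a1 and not chondrocytes. The nerve sum of KO nasal, 382, came second, with an uncorrected Erbb3 signal of 426 and Sox10 close to the detection limit. The part of these markers in the Sox10 difference was not tested. Surface epithelium markers summed to 9807 to 11592 in KO and 8124 to 9024 in WT. The sum was lowest on the WT nasal array, where Sox9 was lowest, but of its members only Cdh1, Pax6 and Esrp1 were lowest there. Krt5, Krt14 and Krt15 were lowest on WT temporal, and the others on other arrays. The part of these markers in the Sox9 difference was not tested either.

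In the genome annotation the coding gene next to Sox9 with a probe is Slc39a11, a zinc transporter gene, with KO minus WT of 0.29, -0.35 and -0.62 in nasal, temporal and dorsal. Sox10 lies between Polr2f, a subunit gene of RNA polymerases, and Pick1. Polr2f had -0.89, -0.60 and -0.14, lower in each region as Sox10 was, and the 3 probes of Pick1 had 0.39, -0.08 and 0.15 in nasal, -0.19, 0.86 and -0.11 in temporal, and -0.36, -1.09 and -0.72 in dorsal. Polr2f and Slc39a11 each rest on 1 probe, and these differences carry no test.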

How the data were processed

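Gene expression was measured on 6 Illumina bead arrays. Sections of 10 micrometres were laser-dissected and 15 ng of total RNA amplified, per the labels' protocols. Those mention lens tissue of 1 embryo, and the pooled design was taken from the series' design text. Per the file headers, each probe and array had a deposited signal intensity (mean over beads), its bead standard error, a bead number and a detection p-value, which steps by 1 in 936 controls. GenomeStudio is named in the submitters' processing notes. The deposited signal intensities were neither background-subtracted nor normalized. The authors' processed intensity values, whose normalization is not stated in the labels or headers, served as an alternative. The table's 1315 entries without a probe identifier were not used.

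Signals were corrected with limma 3.58.1 (R 4.3.3) by normexp (offset 16, controls inferred through the detection p-values), quantile-normalized and taken to log2, so folds of dim probes are understated. Bead SE on that scale is the bead standard error over corrected signal plus offset. The 22926 probes detected on at least 2 arrays were fitted with region and genotype (lmFit, eBayes), with Benjamini-Hochberg adjustment over all of them, and the code was tested on simulated data. The exact permutation test of 3 arrays against 3 cannot pass 0.05 and was not used. Symbols were updated by Entrez identifier against GRCm38.p6. No label or header names the array's build, and coordinates are left out. Named were all SoxE probes, the 5 largest differences of each list by its brightest probe, and the 5 most correlated genes; others were named after their values were seen. The members and lists were chosen with earlier results of these data known. One gene that the rule for similar patterns ranks among the 5 for Sox10 is not reported here.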

Additional observations from a re-analysis of the deposited data

Results flagged for a closer look

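Sox9 differences between KO and WT ran in opposite directions in different regions, each over 2 bead SE. With ILMN_2778151 the difference was 1.92 in nasal and -0.499 in dorsal. With ILMN_3007428 it was 0.986 in nasal and 0.776 in dorsal, but -0.423 in temporal. The same rule was met by 15.8% of all tested probes, and with median scaling by neither Sox9 probe (-0.24 in dorsal and -0.25 in temporal). Each region holds 1 array per genotype, so these contrasts between pairs of regions were not tested. The interaction of genotype with dorsal against the mean of nasal and temporal did not pass for either probe (adjusted p = 0.9999 in limma).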

How the results depend on the processing

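No SoxE probe passed in any alternative, and 0 probes passed in limma under each for the 4 comparisons. For KO minus WT, Sox10 ranged from -4.03 with the authors' processed values to -0.72 without the temporal arrays. Leaving out arrays gives only 3 distinct values there and could not turn the sign, since the difference was negative in each region, and filters and the region term leave the value as it is. The brighter Sox9 probe ranged from -0.22 to 0.99 when an array or region was left out, with -0.22 without either or both nasal arrays. For nasal and temporal minus dorsal, leaving out an array gave -1.20 to 0.29 for the brighter probe (0.08 without WT nasal, 0.29 without WT dorsal) and -0.63 to 0.019 for the dimmer (0.019 without KO temporal). For nasal minus temporal the ranges were -1.86 to 0.29 and -1.00 to 0.31, positive without WT nasal (0.29 and 0.06) and, for the dimmer, without WT temporal (0.31). For Sox10 that range was -2.74 to 0.73, with 0.73 without WT temporal and 0.32 with the authors' values. The cause of these turns was not tested. Counts of probes at least 2-fold apart in nasal, temporal and dorsal were 4066, 3214 and 1265, but 591, 427 and 46 without background correction, 1453, 990 and 213 with offset 50, and 9286, 8580 and 6154 with the authors' values. With median scaling 3 of the other Sox genes were lower in KO, in place of 5. The alternatives for gene lists were chosen after seeing the data. No paired analysis was possible because the labels number no replicates, other than the pairing of KO and WT arrays by region that the region term makes. Signal over background limits Sox8 on all arrays and Sox10 on KO arrays, and the number of arrays limits each comparison.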
